A study of Homo sapiens with 6 samples.

Results

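Immediate early genes are switched on within minutes of a stimulus, from proteins already present in the cell, and most of them code for transcription factors or for enzymes that shut the signal off again. This account follows 10 of them, FOS, FOSB, FOSL1, JUN, JUNB, EGR1, IER2, IER3, MYC and DUSP1, chosen by name from the 29845 genes of the count table. A549 is a human cell line grown from a lung adenocarcinoma. The control cells received the empty plasmid pIRES-hrGFP-1a, and the cells labelled TFAM-OE received the same plasmid carrying the open reading frame of TFAM, the packaging and transcription factor of mitochondrial DNA, with a FLAG tag. Both groups were transfected with a cationic lipid and harvested after 48 h, and polyadenylated RNA was sequenced from 3 libraries per group. Both groups thus share the lipid, the plasmid backbone and its GFP, and no untransfected cells were analysed here. The study asked which transcripts change when TFAM is raised, and the comparison here is that question for the immediate early genes.

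In a resting cell these promoters are held ready. Growth factor receptors signal through RAS and the MAP kinase ERK to ternary complex factors such as ELK1, which sit with the serum response factor SRF on CArG boxes. Cyclic AMP and stress signals act through CREB and ATF proteins on cyclic AMP response elements. Fos proteins cannot pair with each other and bind DNA as dimers with Jun proteins, together called AP-1. Serum, stress, a change of medium and transfection are all known inducers of these genes, and many of their mRNAs decay quickly.

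The upstream sequences of 7 of the 10 genes, 250 bases before the start of transcription, were read from RefSeq on GRCh38.p14 and searched on both strands. FOSL1, IER3 and MYC were not matched. The pentamer TGACG, or CGTCA on the other strand, is the core of the cyclic AMP response element, and it is in capitals in the stretches below because all 7 promoters hold it, against 21.2% of 35116 promoters of the same length. In EGR1 the capitals also mark 2 CArG boxes, the letters bound by SRF.
EGR1: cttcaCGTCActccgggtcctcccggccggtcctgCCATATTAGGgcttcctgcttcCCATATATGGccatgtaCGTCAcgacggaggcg
FOS: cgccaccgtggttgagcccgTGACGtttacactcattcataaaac
FOSB: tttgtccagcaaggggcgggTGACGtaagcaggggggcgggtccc
JUN: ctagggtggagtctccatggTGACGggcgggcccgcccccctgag
JUNB: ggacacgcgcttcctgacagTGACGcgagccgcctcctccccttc
IER2: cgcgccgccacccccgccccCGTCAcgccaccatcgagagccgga
DUSP1: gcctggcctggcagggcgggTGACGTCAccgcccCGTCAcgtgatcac

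The EGR1 stretch is chr5:138465339-138465428 on the plus strand, with CArG boxes that begin 105 and 83 bases before the start and CGTCA matches 135 and 66 bases before it. The FOS stretch is chr14:75278744-75278788 and the FOSB stretch chr19:45467916-45467960, both on the plus strand, and their pentamers begin 64 and 60 bases before the start. JUN is at chr1:58784146-58784190 on the minus strand, JUNB at chr19:12791329-12791373 and IER2 at chr19:13150251-13150295, both on the plus strand. The DUSP1 stretch, chr5:172771293-172771340 on the minus strand, holds the full palindrome TGACGTCA, which 1.65% of all promoters hold, and a further CGTCA. Within these 250 bases the CArG box was found in EGR1 alone of the 7, against 1.16% of all promoters, and TATAAA was found in FOS, FOSB, JUNB and DUSP1, against 10.7%. The AP-1 site TGANTCA was in 0 of the 7, against 6.57% of all promoters, the EGR site GCGNGGGCG was in EGR1 alone, against 8.41%, and the MYC site CACGTG was in DUSP1 alone, against 6.34%. Each match overlapping another (TGACG lies inside TGACGTCA) was counted under both. Only exact matches were counted and sequence farther upstream was not searched, so a gene without a match may hold the element elsewhere. The matches describe these windows and say nothing of binding in A549 cells.

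The libraries held between 26650854 and 37321956 reads counted to genes, and pairs of replicates differed well beyond sampling noise. The TFAM gene itself, which should check the labels, had 2555, 1878 and 2663 reads in control replicates 1 to 3 and 2291, 2808 and 2492 in the libraries labelled TFAM-OE, and its log2 fold change was 0.085 (95% interval −0.13 to 0.30, adjusted p = 0.62, edgeR quasi-likelihood test). The mRNA shows no rise by which the labels could be checked. The study looked at the tagged protein itself by western blot with an antibody to FLAG, which is not part of the data analysed here, and the groups and directions below follow the labels. The epithelial keratins KRT8, KRT18 and KRT19 were abundant in all libraries (summed epithelial list 1251 to 1366 FPKM in the control and 1231 to 1360 in TFAM-OE), while EPCAM and CDH1 were at most 0.47 and 1.48 FPKM. SFTPB and SFTPC, of the alveolar type II cell, summed to at most 0.09 FPKM, the endothelial list to at most 0.03 and the fibroblast list to at most 0.64. The immediate early genes lie on 7 chromosomes of GRCh38 (GENCODE version 44). On the plus strand are EGR1 (chr5:138465479-138469303), FOS (chr14:75278826-75282230), JUNB (chr19:12791486-12793315), IER2 (chr19:13150411-13154911), FOSB (chr19:45467995-45475179) and MYC on chromosome 8. On the minus strand are JUN (chr1:58776845-58784048), DUSP1 (chr5:172768096-172771195), IER3 (chr6:30743199-30744548) and FOSL1 (chr11:65892049-65900573). Exons of JUNB overlap exons of HOOK2 on the opposite strand, exons of IER3 those of HCG20 and IER3-AS1, exons of MYC those of CASC11 and exons of IER2 those of unnamed long non-coding RNAs, and no source used here says whether strand entered the counting. The counts of these 4 genes could hold reads of those neighbours.

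All 10 genes were expressed well enough to be tested, and 5 of them, EGR1, FOSB, JUN, IER2 and JUNB, passed an adjusted p of 0.05 with lower levels in the libraries labelled TFAM-OE, while 0 passed with higher levels (0 at an unadjusted p of 0.05, and 0 under each of 18 other settings, DESeq2 and limma among them). Of all 16555 genes tested, 4.81% were lower by the same rule and 3.48% were higher. At an unadjusted p of 0.05, 2017 of them were higher. The fitted log2 fold changes of the 10 ran from −3.64 to −0.03 with a median of −0.51, against a median of −0.01 over all genes tested. The control and TFAM-OE libraries did not overlap in 6 of the 10, all lower, where 15.8% of the genes tested were lower without overlap. EGR1 and FOSB also passed a fold change of at least 2, as 2.07% of the genes tested did in the lower direction. The number of immediate early genes lower was 3 without control replicate 1, and 1, EGR1, without control replicate 2 or without TFAM-OE replicate 2, while the lower genes of the whole table fell from 796 to between 240 and 262 in those fits. Because these are bulk samples, fewer expressing cells and less RNA per cell cannot be told apart, and the p-values measure the spread between these libraries, which the study calls biological replicates and the labels only number.

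**Figure D1:**
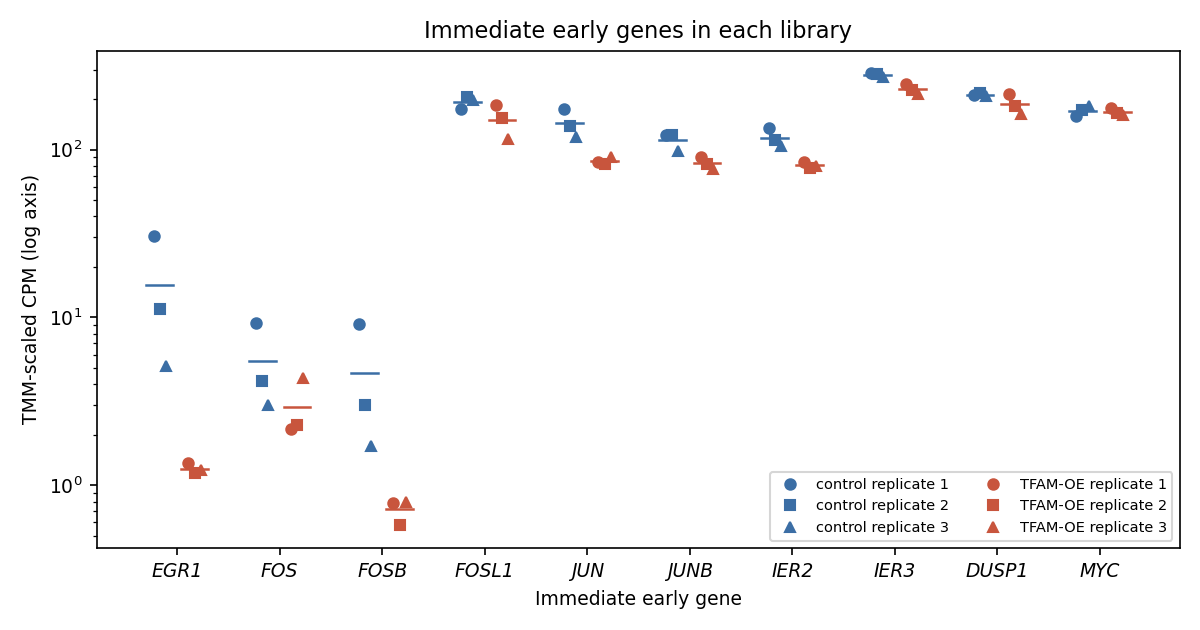
TMM-scaled CPM (counts scaled to library size, log axis) of the 10 immediate early genes in each of the 6 libraries, with control in blue, TFAM-OE in red, the replicate number as the marker shape and the group mean as a bar. EGR1, FOS and FOSB lie far below the other 7 genes and spread widely in the control, where replicate 1 is the highest library for each of the 3.

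Per unit of transcript length the genes fell into 2 ranges of abundance. In the control, IER3 was the most abundant at 176 ± 9.33 FPKM (SD, n = 3), followed by DUSP1 at 89.7 ± 3.14 and FOSL1 at 89.3 ± 5.40, whose libraries overlapped. JUNB at 53.9 ± 7.70 and MYC at 48.6 ± 2.36 overlapped each other, as did JUN at 34.8 ± 7.86 and IER2 at 32.8 ± 5.16. EGR1 at 4.34 ± 3.79, FOS at 1.61 ± 1.02 and FOSB at 0.727 ± 0.643 stood far below, and each overlapped the next. In the libraries labelled TFAM-OE the order differed at 3 places: MYC (46.9 ± 0.967) stood above JUNB (38.2 ± 1.30) with no overlap, IER2 (22.1 ± 1.03) above JUN (20.3 ± 2.15) with overlap, and FOS (0.850 ± 0.400) above EGR1 (0.333 ± 0.0208) with no overlap.

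EGR1, the zinc finger factor that binds GC-rich sites, showed the largest difference of the 10. It was counted at 30.7, 11.2 and 5.16 CPM in control replicates 1 to 3 (1030, 301 and 189 reads) and at 1.35, 1.18 and 1.23 CPM in TFAM-OE replicates 1 to 3 (43, 43 and 37 reads). Every control library was thus above every TFAM-OE library, but the control libraries themselves differed 5.95-fold from lowest to highest, whereas the TFAM-OE libraries differed 1.14-fold. The fitted level was 12.5-fold lower in TFAM-OE (log2 fold change −3.64, SE 0.58, 95% interval −4.93 to −2.35, adjusted p = 0.0061, edgeR). Without control replicate 1 it was −2.69 (adjusted p = 0.0061). EGR1 stayed past the threshold in all 18 other settings that were tried.

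FOSB, a Fos protein that is induced sharply and briefly, showed the same arrangement of libraries at a lower level. It had 9.20, 2.99 and 1.72 CPM in the control (309, 80 and 63 reads) and 0.784, 0.578 and 0.800 CPM in TFAM-OE (25, 21 and 24 reads). The groups did not overlap, and control replicate 1 was again the highest library. FOSB was 6.46-fold lower in TFAM-OE (log2 fold change −2.69, SE 0.57, 95% interval −3.97 to −1.41, adjusted p = 0.022, edgeR). Leaving out control replicate 1 brought it to −1.69 (adjusted p = 0.038), and leaving out control replicate 2 or TFAM-OE replicate 2 took it over the threshold (adjusted p = 0.056 and 0.094).

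FOS, the founding member of the family, did not pass the test. Its levels were 9.26, 4.18 and 3.002 CPM in the control and 2.16, 2.28 and 4.33 CPM in TFAM-OE. TFAM-OE replicate 3 lay above control replicates 2 and 3, so the groups overlapped, and control replicate 1 held 311 of the reads where the other 5 libraries held 69 to 130. FOS had a log2 fold change of −0.91 (SE 0.41, 95% interval −1.82 to −0.0048, adjusted p = 0.19, edgeR). It was −0.29 (adjusted p = 0.72) without control replicate 1 and −1.29 (adjusted p = 0.029) without TFAM-OE replicate 3, so the call turned on single libraries.

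FOSL1, which codes for the stable Fos protein FRA1 of many epithelial tumours, was 2 orders of magnitude more abundant per length than FOSB. Its levels were 176, 206 and 197 CPM in the control and 183, 154 and 116 CPM in TFAM-OE. TFAM-OE replicate 1 was above control replicate 1, and replicate 3 was the lowest of the 6. The log2 fold change of −0.35 (SE 0.15, 95% interval −0.69 to −0.012) did not pass (adjusted p = 0.18, edgeR), though without TFAM-OE replicate 1 it was −0.51 (adjusted p = 0.023). FOSL2, the remaining Fos gene, was at 282 ± 15.1 CPM in the control and 232 ± 16.8 in TFAM-OE, with no overlap and an adjusted p of 0.099.

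JUN, the principal Jun partner of AP-1, was lower in all 3 libraries labelled TFAM-OE. It stood at 175, 138 and 118 CPM in the control and at 83.9, 81.7 and 90.9 CPM in TFAM-OE. The lowest control library was above the highest TFAM-OE library, and the control libraries were spread more widely than the others. JUN was 1.68-fold lower in TFAM-OE (log2 fold change −0.75, SE 0.14, 95% interval −1.06 to −0.44, adjusted p = 0.012, edgeR), and −0.58 (adjusted p = 0.045) without control replicate 1. Without control replicate 2 or TFAM-OE replicate 2 the adjusted p was 0.062 and 0.074.

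JUNB, a Jun protein that can hold JUN activity in check, was lower by a smaller amount. Its levels were 123, 123 and 98.5 CPM in the control against 90.2, 82.0 and 76.6 CPM in TFAM-OE. The groups did not overlap, and control replicate 3 came closest to the TFAM-OE libraries. JUNB had a log2 fold change of −0.47 (SE 0.12, 95% interval −0.73 to −0.21, adjusted p = 0.038, edgeR), and the adjusted p was between 0.16 and 0.17 without control replicate 1, control replicate 2 or TFAM-OE replicate 2. JUND, the Jun gene that is expressed steadily rather than induced, was at 128 ± 4.42 CPM in the control and 143 ± 9.25 in TFAM-OE, a log2 fold change of 0.17 (95% interval −0.04 to 0.37) with an adjusted p of 0.29. Its TFAM-OE libraries were all above its control libraries, as for 2620 of all 16555 genes tested.

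**Figure D2:**
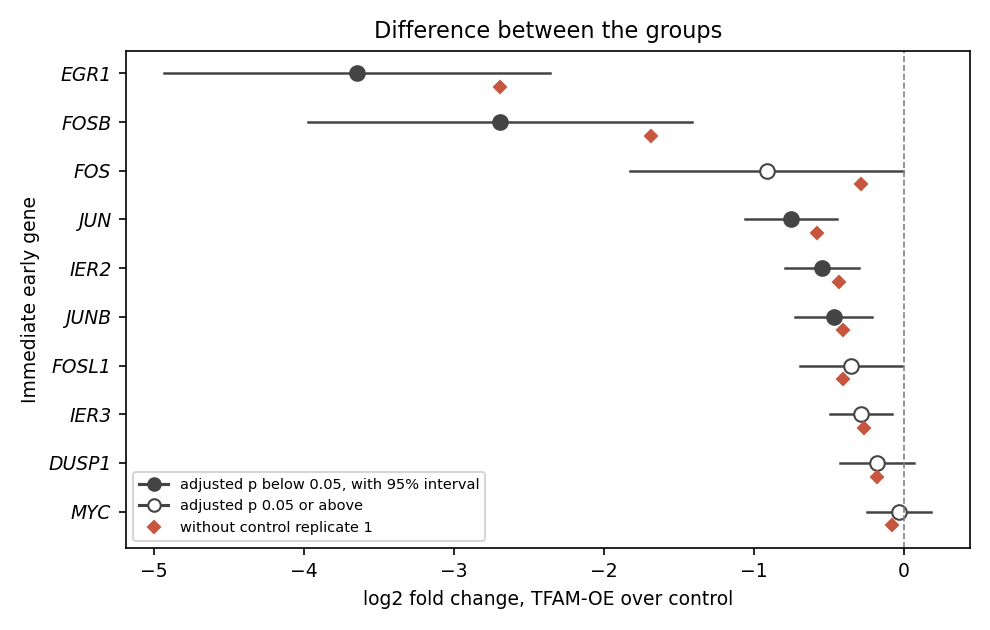
Fitted log2 fold change of each immediate early gene, TFAM-OE over control, with its 95% interval as a line, filled circles for an adjusted p below 0.05, open circles for the others and diamonds for the same value without control replicate 1. All 10 circles are below 0, and for EGR1 and FOSB the diamonds are at −2.69 and −1.69.

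Set side by side per length, the Fos family mRNA came mostly from FOSL1 and FOSL2, which did not pass the test. FOSL1 made up 70.2% ± 3.44 of the summed Fos family FPKM in the control and 69.4% ± 6.52 in TFAM-OE, and FOSL2 27.9% ± 2.13 and 29.6% ± 6.04, while FOS and FOSB together were a few percent at most in any library (FOS 1.26% ± 0.805 and 0.891% ± 0.497, FOSB 0.571% ± 0.508 and 0.113% ± 0.0284). The Fos family sum was 127 ± 4.30 FPKM in the control and 98.2 ± 8.12 in TFAM-OE, with no overlap between the groups. The Jun family sum was 147 ± 17.1 and 123 ± 1.66 FPKM. Within it JUND was 36.7%, 40.1% and 43.2% in the control libraries and 51.5%, 54.4% and 51.3% in the TFAM-OE libraries. JUND thus held a larger part of the Jun mRNA in every TFAM-OE library, with JUN at 23.5% ± 2.81 against 16.5% ± 1.66 and JUNB at 36.5% ± 1.42 against 31.1% ± 1.48. With 3 libraries against 3, groups that do not overlap give a two-sided p of 0.1 in an exact permutation test of the means, the smallest it allows.

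**Figure D3:**
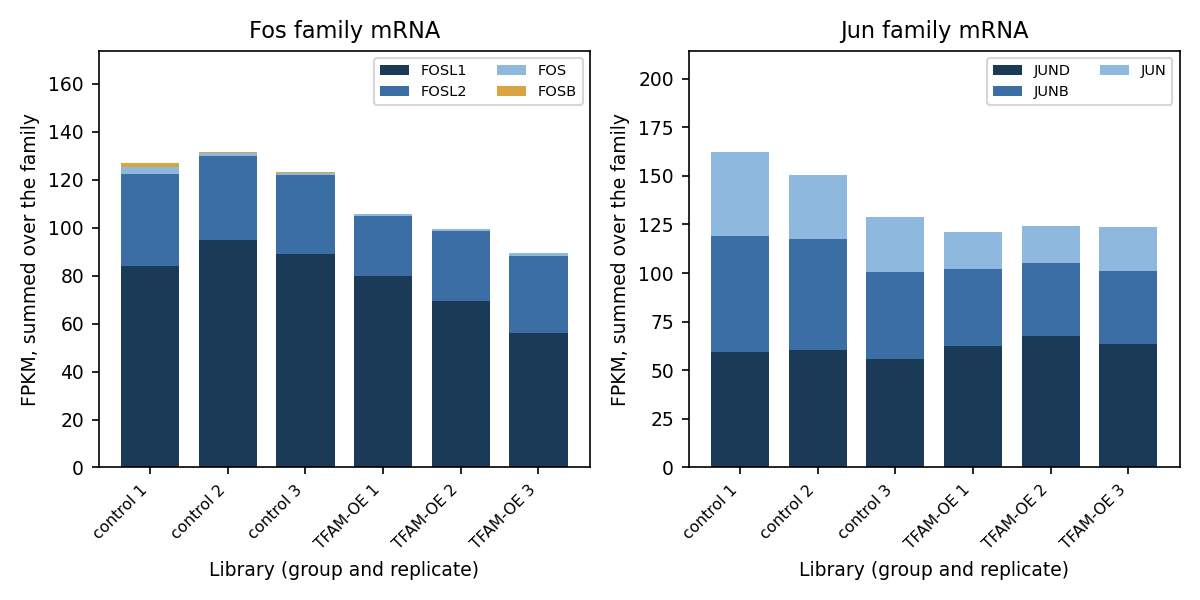
FPKM of the Fos family genes (left) and of the Jun family genes (right), stacked within each library, so that the bar height is the family sum. The Fos sums are 123 to 132 in the control and 89.6 to 106 in TFAM-OE, and FOS and FOSB are thin bands at the top, whereas in the Jun bars the JUN band is 27.9 to 43.4 in the control and 19.0 to 22.8 in TFAM-OE.

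IER2, a small nuclear protein of the immediate early response, was lower in TFAM-OE. Its levels were 134, 114 and 105 CPM in the control and 84.1, 78.1 and 80.2 CPM in TFAM-OE. All control libraries were above all TFAM-OE libraries, and control replicate 1 was the highest and control replicate 3 the lowest control library, as for EGR1, FOS, FOSB and JUN. IER2 had a log2 fold change of −0.54 (SE 0.11, 95% interval −0.79 to −0.30, adjusted p = 0.018, edgeR), and the adjusted p was 0.083 without control replicate 1, 0.084 without control replicate 2 and 0.11 without TFAM-OE replicate 2.

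IER3, which regulates cell survival under stress, had control libraries that were more even than those of any other of the 10 but DUSP1. They stood at 285, 284 and 270.4 CPM, and the TFAM-OE libraries at 248, 227 and 214 CPM. The groups did not overlap, yet the log2 fold change of −0.29 (SE 0.09, 95% interval −0.49 to −0.078) did not pass after adjustment (adjusted p = 0.088, edgeR). With scaling by library size alone the adjusted p was 0.044, and with limma on FPKM it was 0.034 or 0.035.

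DUSP1, the phosphatase that inactivates MAP kinases and closes the feedback loop, did not pass the test. It stood at 210.4, 217 and 208 CPM in the control and at 215, 182 and 164 CPM in TFAM-OE. TFAM-OE replicate 1 lay within the control range and the other two below it. The log2 fold change was −0.18 (SE 0.11, 95% interval −0.43 to 0.07, adjusted p = 0.34, edgeR), an interval that reaches from 0.744 to 1.05 of the control level.

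MYC, the growth-promoting factor that pairs with MAX, had the smallest difference of the 10. It stood at 158, 172 and 183 CPM in the control and at 177, 165 and 161 CPM in TFAM-OE. The TFAM-OE libraries all lay within the control range. The log2 fold change was −0.03 (SE 0.10, 95% interval −0.24 to 0.18, adjusted p = 0.88, edgeR), and it was above 0 without control replicate 3 (0.025) and without TFAM-OE replicate 3 (0.0076).

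The spread of the control libraries was itself uneven among the genes. On the log2 scale the SD over the 3 control libraries was 1.24 for EGR1, 1.09 for FOSB and 0.76 for FOS, and only 0.0242%, 0.0423% and 0.0725% of the genes tested had a larger control SD. IER3 (0.042) and DUSP1 (0.032) were at the other end, where 91.7% and 95.1% of the genes tested varied more. In the TFAM-OE libraries the SD was 0.069 for EGR1 and 0.15 for FOSB but 0.48 for FOS. All these SDs are of CPM with 0.5 added. That narrows the spread most where levels are low, as for EGR1 and FOSB in TFAM-OE (means of 1.255 and 0.721 CPM). Control replicate 1 was the highest control library for 7 of the 10 genes and control replicate 3 the lowest for 8, as for 37.3% and 35.9% of all genes tested. What set the control libraries apart was not tested.

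Likeness of pattern was measured as the root mean square difference between profiles of log2 CPM with 0.5 added. Each profile was centred on its mean over the 6 libraries, and neighbours were sought among genes of at least 10 CPM on average. The added 0.5 narrows the differences between libraries for genes as low as EGR1 and FOSB in TFAM-OE. The genes nearest to EGR1 among 9403 were ATF3 (0.26), CCL5 (0.43) and DDIT3 (0.53). ATF3, a stress-induced factor, went from 83.8, 41.1 and 24.3 CPM in the control to 7.53, 7.24 and 6.23 in TFAM-OE, with the same order among the control libraries. The genes nearest to FOS were FAM13B (0.26), SLFN5 (0.28) and ABL2 (0.28), to JUN NR1D2 (0.048), NFIL3 (0.060) and DIO2 (0.063), and to MYC ABCC3, PIGO and UBE2Z (0.023 to 0.027). Among the 45 pairs of the 10 genes themselves, IER3 with DUSP1 (0.075) and JUNB with IER2 (0.093) were closest, and EGR1 with MYC (1.62) farthest. These values describe 6 libraries and carry no test.

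Most of the further immediate early genes that passed the test were lower as well. Of 37 further immediate early genes 33 could be tested, and 17 were lower and 2 higher, with a median log2 fold change of −0.48. These are 51.5% and 6.06% of the genes tested from the list. Over all genes tested 4.81% were lower and 3.48% higher, with a median of −0.01. Those with the smallest p-values were PPP1R15A, which restarts translation after stress (346 ± 90.0 CPM in the control and 116 ± 27.7 in TFAM-OE, log2 fold change −1.57, adjusted p = 0.0025, edgeR), ATF3 (log2 fold change −2.83, adjusted p = 0.0028), TIPARP (−0.92, 0.0032), ZFP36, which speeds the decay of short-lived mRNAs (−0.89, 0.0034), GEM (−1.13, 0.0054) and the antiproliferative BTG1 (−0.63, 0.0069). Over the 33 genes tested, the groups did not overlap for 21 lower and 3 higher genes, beside 2623 lower and 2620 higher of all 16555. The 2 higher genes, named after their values were seen, were KLF2 (0.69, adjusted p = 0.041) and RHOB (0.33, adjusted p = 0.044). The number lower was 8 without control replicate 1, 6 without control replicate 2 and 5 without TFAM-OE replicate 2, and the number higher was 0 in each of these 3 fits and 1 without control replicate 3. Over all genes tested, 252, 240 and 262 were lower in the same order, and 90, 66, 89 and 482 were higher.

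In the route that carries a growth factor signal to these promoters, the share of genes that passed was near that of all genes tested. Of 32 genes from EGFR and its ligands through RAS, RAF, MEK and ERK to SRF, 1 was lower and 1 higher (3.13% each, against 4.81% and 3.48% of all genes tested), and the median log2 fold change was −0.01. The lower was the ligand EREG (412 ± 13.8 CPM in the control and 310.0 ± 36.0 in TFAM-OE, −0.41, adjusted p = 0.043, edgeR) and the higher the ligand AREG (42.4 ± 3.67 and 67.5 ± 10.7, 0.67, adjusted p = 0.015). SRF was at 81.8 ± 2.23 CPM in the control and 71.5 ± 10.3 in TFAM-OE (−0.19, 95% interval −0.45 to 0.07, adjusted p = 0.33), and EGFR at 191 ± 30.7 and 158 ± 47.4 (−0.27, 95% interval −0.72 to 0.17, adjusted p = 0.43). The number lower was 0 without any 1 of the control replicates and without TFAM-OE replicate 2, and the number higher was 0 without control replicate 1 and without control replicate 2. Over all genes tested, 252, 240, 748 and 262 were lower in the same order, and 90 and 66 were higher. The values of this route are mRNA levels, and phosphorylation, by which most of this route works, was not measured.

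**Figure D4:**
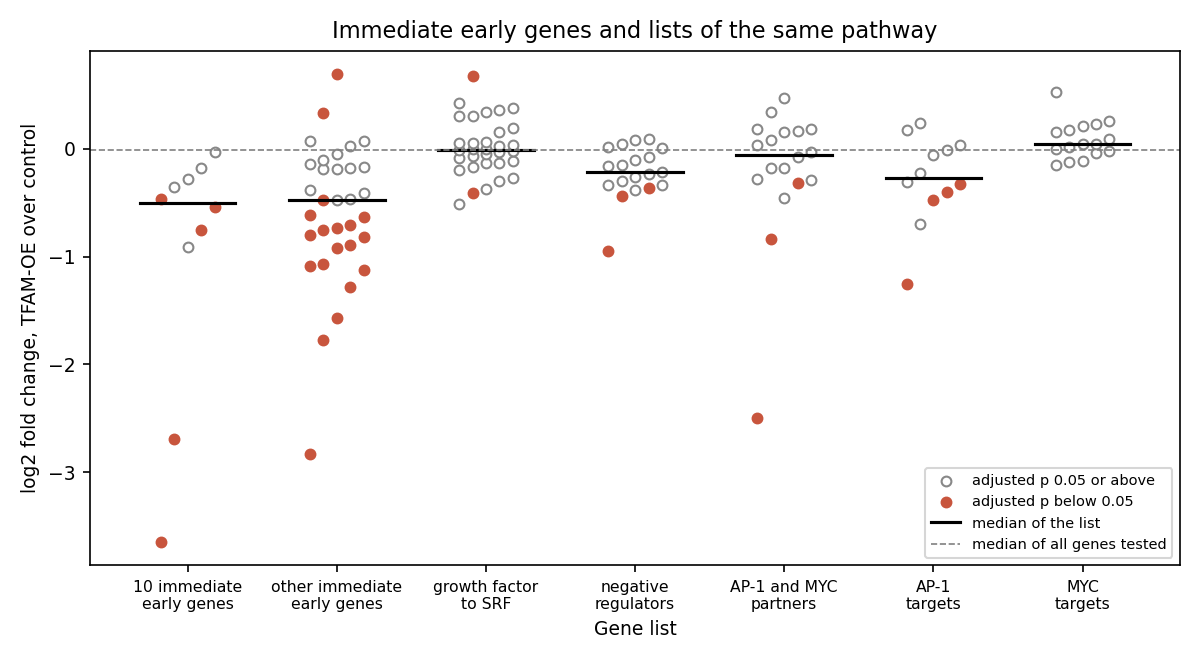
Log2 fold change, TFAM-OE over control, of each tested gene of 7 lists, as filled circles for an adjusted p below 0.05 and open circles for the others, with the list median as a black bar and the median of all 16555 genes as a dashed line. The medians are −0.51 for the 10 immediate early genes and −0.48 for the further ones, and lie between −0.27 and 0.04 for the other 5 lists.

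Among 19 negative regulators of MAP kinases and EGR1, 3 were lower and 0 higher in edgeR (5 and 0 at an unadjusted p of 0.05, and 0 higher in DESeq2), with a median log2 fold change of −0.22. At an unadjusted p of 0.05, 2191 of all 16555 genes tested were lower and 2017 higher. The 3 genes lower after adjustment are 15.8% of the list, beside 4.81% lower and 3.48% higher of all genes tested. They were the phosphatases DUSP10 (13.5 ± 3.32 CPM in the control and 6.98 ± 0.831 in TFAM-OE, −0.95, adjusted p = 0.015, edgeR), DUSP5 (log2 fold change −0.37, adjusted p = 0.037) and DUSP6 (22.1 ± 1.97 and 16.3 ± 0.960, −0.44, 0.0495), of which DUSP5 and DUSP6 act on ERK. NAB2, the corepressor of EGR1 that is itself an EGR1 target, was at 27.8 ± 2.57 and 23.1 ± 3.65 CPM with overlapping groups (−0.26, 95% interval −0.57 to 0.05, adjusted p = 0.27). The number lower was 0 without control replicate 1, control replicate 2 or TFAM-OE replicate 2, and 1 without control replicate 3. Over all genes tested the number lower was 252, 240, 262 and 748 in the same order, against 796 in the main fit.

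Of 18 dimer partners of AP-1 and MYC proteins, 3 were lower and 0 higher in edgeR (4 and 1 at an unadjusted p of 0.05, and 0 higher in DESeq2), with a median of −0.06. The 3 lower genes are 16.7% of the list, where 4.81% of all genes tested were lower and 3.48% higher. Of all 16555 genes tested, 2191 were lower and 2017 higher at an unadjusted p of 0.05. BATF2, an interferon-induced partner of Jun proteins, was at 44.4, 46.0 and 44.3 CPM in the control and 10.8, 7.07 and 5.93 CPM in TFAM-OE. Its control libraries were even, unlike those of EGR1 and FOSB, and its log2 fold change was −2.50 (SE 0.20, adjusted p = 9e-05, edgeR). The others were MXD1, a MAX partner that opposes MYC (−0.83, adjusted p = 0.026), and the small Maf protein MAFK (−0.32, adjusted p = 0.049). Without control replicate 1, control replicate 2 or TFAM-OE replicate 2 the number lower was 1, and it was 6 without TFAM-OE replicate 3. The number lower over all genes tested was 252, 240, 262 and 1786 in the same order, against 796 in the main fit.

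Downstream, 12 of 16 known AP-1 target genes could be tested, and 4 were lower and 0 higher in edgeR (6 and 0 at an unadjusted p of 0.05, and 0 higher in DESeq2), with a median of −0.27. Over the whole table, 2191 of 16555 genes tested were lower and 2017 higher at an unadjusted p of 0.05. The 4 genes lower after adjustment are 33.3% of the genes tested from the list, against 4.81% lower over the whole table. They were the collagenase MMP1 (1.10 ± 0.163 CPM in the control and 0.459 ± 0.0165 in TFAM-OE, −1.25, adjusted p = 0.021, edgeR), the urokinase receptor PLAUR (log2 fold change −0.40, adjusted p = 0.027), SPP1, which codes for osteopontin (−0.47, 0.035), and the hyaluronan receptor CD44 (949 ± 26.8 and 755 ± 3.05, −0.33, 0.049). All 4 calls were lost without control replicate 1, without control replicate 2 and without TFAM-OE replicate 2. The lower genes of the whole table numbered 252, 240 and 262 in these fits, against 796 in the main fit. Of 16 MYC target genes, which include nucleolar proteins and enzymes of nucleotide and polyamine synthesis, 0 were lower and 0 higher in edgeR (0 and 2 at an unadjusted p of 0.05, 0 and 0 in DESeq2, and 3 higher without TFAM-OE replicate 3), and their median log2 fold change was 0.04, beside the −0.03 of MYC itself. With 4.81% lower and 3.48% higher over all genes tested, a count of 0 in a list of 16 is near the background. Without TFAM-OE replicate 3, 1428 of all 16941 genes tested were higher.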

How the data were processed

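Reads of 6 libraries of polyadenylated RNA were cleaned by the authors with FASTX-Toolkit, aligned to GRCh38 with TopHat2 and, where uniquely mapped, counted per gene. The sources used here do not name their counting program, annotation or strand setting. The authors deposited raw counts per gene and library, and FPKM values computed from them. Counts were kept by edgeR's filterByExpr, scaled by TMM and compared by edgeR (4.0.16, in R 4.3.3) with its quasi-likelihood F test, two-sided and unpaired, with Benjamini-Hochberg adjustment over all 16555 genes kept of 29845. SEs are the log2 fold change over the square root of F. CPM values are TMM-scaled, and deposited FPKM was used to compare genes. Log2 SDs and the profiles compared for likeness are of CPM with 0.5 added. Alternatives used DESeq2 (1.42.0), limma (3.58.1), other filters and scalings, FPKM with 0.1 or 1 added before log2, each library left out, and the replicate number as a block. The fits were tested on simulated data in which spread depended on abundance alone and no library deviated. That test does not cover genes as widely spread in the control as EGR1, FOSB and FOS.

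Reads counted to genes numbered 26650854 to 37321956 per library, which is less than all reads sequenced. There were no molecular identifiers, so counting error is only part of the error. The immediate early genes, the 6 other lists and the choice of tests were set with earlier results of these data known, and no list is independent evidence. Named are all 10 genes, TFAM, up to 6 called genes of smallest p per list, FOSL2, JUND, SRF, EGFR, NAB2, DUSP6 and the 3 genes nearest in pattern to EGR1, FOS, JUN and MYC; KLF2 and RHOB, and EGR2 and EGR4, were added after their values were seen. Replicate numbers did not pair the libraries. Positions are from GENCODE version 44, promoters from RefSeq. Tables were handled in Python (3.11.15) with pandas (2.3.3) and numpy (2.4.6), and figures drawn with matplotlib (3.10.9). Unused value columns numbered 0.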

Additional observations from a re-analysis of the deposited data

How the results depend on the processing

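Of 180 values, the log2 fold changes of the 10 immediate early genes under 18 other settings, 155 kept their direction and their side of the threshold, 16 lost it, 7 gained it and 2 changed sign, both for MYC (0.025 without control replicate 3 and 0.0076 without TFAM-OE replicate 3). The causes were not tested. EGR1 passed in every setting (−4.06 to −1.76, adjusted p up to 0.040). FOSB did not pass with limma-voom (−2.32, adjusted p = 0.064) or limma on FPKM with 0.1 (−1.70, 0.054) or 1 added (−0.58, 0.13), where the added value bounds the change of so low a gene. FOS (−0.91, 0.00018) and FOSL1 (−0.35, 0.043) passed with no filter beyond 1 read, and IER3 with library size alone (−0.31, 0.044) and with limma on FPKM (−0.31 with either value, 0.034 and 0.035).

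The replicate numbers did not pair the libraries (correlations of deviations −0.30, 0.036 and −0.36 for numbers 1 to 3). The highest correlations were between unlike numbers, 0.338 for control replicate 3 with TFAM-OE replicate 1 and 0.337 for control replicate 1 with TFAM-OE replicate 3. What lay behind them was not tested. With the replicate block, JUN (−0.73, adjusted p = 0.065), JUNB (−0.46, 0.10) and IER2 (−0.54, 0.077) did not pass, which left 2 of the 10 lower. Further immediate early genes then numbered 0 higher, the route to SRF 0 lower, the negative regulators 1 lower, the dimer partners 1 lower and the AP-1 targets 0 lower. Over all genes tested, 285 were lower and 74 higher under the block, 217 and 38 of them by a fold of at least 2, against 796, 576, 342 and 74.

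With no filter 1485 genes were lower and 1034 higher, 528 and 129 by a fold of at least 2, with 1 further immediate early gene higher, 2 lower and 3 higher in the route to SRF, and 1 dimer partner higher. The edgeR exact test gave 1236 lower and 980 higher, and 2 lower and 2 higher in the route. DESeq2 gave 1105 lower and 932 higher, and 2 lower and 3 higher in the route. RLE scaling gave 2 higher in the route, and library size alone 0 lower and 2 higher there and 1 further immediate early gene higher. Limma on FPKM gave 1 further immediate early gene higher and 2 higher in the route with either added value, with 44 genes higher by a fold of at least 2 with 0.1 added, and 108 lower and 11 higher with 1 added.

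With 1 library left out, the log2 fold change ran from −4.06 to −2.69 for EGR1, −3.09 to −1.69 for FOSB, −1.29 to −0.29 for FOS, −0.51 to −0.19 for FOSL1, −0.87 to −0.58 for JUN, −0.56 to −0.41 for JUNB, −0.62 to −0.43 for IER2, −0.34 to −0.23 for IER3, −0.29 to −0.087 for DUSP1 (past the threshold in none of these) and −0.078 to 0.025 for MYC. The lower genes then numbered 1 to 6 of the 10 immediate early genes, 5 to 22 of the further ones (0 to 2 higher), 0 to 2 in the route to SRF (0 to 4 higher), 0 to 4 negative regulators, 1 to 6 dimer partners (0 to 2 higher) and 0 to 5 AP-1 targets, and 0 to 3 MYC targets were higher. Over all genes they numbered 240 to 1786 lower and 66 to 1428 higher, and 183 to 448 and 21 to 113 by a fold of at least 2. Of the 10 immediate early genes FOSB had the fewest reads, 21 to 25 per TFAM-OE library.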

Other observations

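EGR2 and EGR4, relatives of EGR1 among the further immediate early genes, had too few reads to be tested. EGR2 had 72, 26 and 8 reads in control replicates 1 to 3 and 3, 3 and 0 in TFAM-OE replicates 1 to 3. For EGR4 the numbers were 91, 12 and 4 in control libraries, against 6, 0 and 0 in TFAM-OE. Both genes had most reads in control replicate 1 and fewest in control replicate 3 of the control libraries, as EGR1, FOSB and JUN did in CPM. The groups did not overlap for EGR2 and overlapped for EGR4. EGR3, with 0 to 3 reads in any library, and SIK1, with 2 to 15, were also left untested.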
